A study of Mus musculus with 40 samples.

Results

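The 10 genes described here, *Ak4*, *Kdm3a*, *Vegfa*, *Slc2a1*, *Pdk1*, *Bnip3*, *Egln3*, *Ndrg1*, *Ankrd37* and *Car9*, are hypoxia response genes, chosen by symbol from the 26411 genes in the count files. All 10 were found and all 10 passed the filter on low counts at both stages. They were read in 40 bulk RNA-sequencing libraries from a study of the histone acetyltransferases KAT6A and KAT6B, to ask whether any mutant embryo carried a transcriptional sign of oxygen shortage. At embryonic day (E) 9.5, 24 whole embryos were sequenced, 4 of each of 6 genotypes: wild type (WT) at both genes, *Kat6a-/-* (homozygous for the *cfd* allele), *Kat6b-/-* (homozygous for the *dec* allele), *Kat6aE/E* (homozygous for G656E), *Kat6bE/E* (homozygous for G577E) and *Kat6aE/E;Kat6bE/E*, the double point mutant. At E14.5, fetal liver LSK cells (negative for lineage markers, positive for SCA-1 and c-KIT, a population enriched for blood stem and progenitor cells) were sorted from 4 fetuses each of WT, *Kat6aE/E*, *Kat6bE/E* and *Kat6aE/E;Kat6bE/E*.

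Both point mutations exchange a glycine for a glutamate within the acetyltransferase domain and were made by CRISPR on a C57BL/6J background. The null alleles remove runs of exons and are present in every cell of the embryo, as are the point mutations. The E9.5 embryos came from 17 litters and the LSK samples from 9. None of the litters of the double point mutant embryos held a WT embryo, so litter and genotype cannot be told apart in that comparison. Its 4 embryos came from 3 litters: replicates 1 and 3 were littermates, and replicates 2 and 4 were each the only embryo sequenced from their litter.

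Cells sense oxygen through the stability of the alpha subunits of hypoxia-inducible factor (HIF). In normal oxygen, prolyl hydroxylases of the EGLN family mark HIF alpha for capture by the von Hippel-Lindau ubiquitin ligase and destruction. When oxygen falls the hydroxylases slow, HIF alpha pairs with ARNT, and the pair binds short DNA elements that contain ACGTG or GCGTG. Its targets raise glucose uptake and glycolysis, hold pyruvate back from the mitochondria, remove mitochondria, export acid and attract blood vessels, and a few of them, such as *Egln3*, feed back on the sensor. Midgestation mouse embryos live at low oxygen before the placenta and circulation are complete, and HIF activity is part of their normal development.

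A single embryo stood apart. In *Kat6aE/E;Kat6bE/E* replicate 2, all 10 genes were higher than in each of the other 23 embryos, with a median excess over the WT mean of 2.12 on the log2 scale of CPM (read counts per unit of library size, scaled by TMM). Replicate 4 of the same genotype was raised to a smaller extent, with a median excess of 0.626 and all 10 genes above every WT embryo. The remaining double point mutants, replicates 1 and 3, were at the WT level, with medians of -0.00544 and 0.0165. Over the 22 embryos other than replicates 2 and 4, this median lay between -0.152 and 0.219. These are values of single embryos with no replicate check.

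For 9 of the 10 genes RefSeq gives a promoter window. Both core elements were searched on either strand. The first, ACGTG, occurred in the 250 bases before the RefSeq start site, or the 50 after it, in 5 of these 9, and in 19.7% of 27025 such windows. The second, GCGTG, occurred in 6 of 9, against 32.5% of all windows, and either of them in 8 of 9, against 43.8%. *Vegfa* held neither in this window. The 250 bases before the start site are shown for the 5 genes with ACGTG because they carry the rarer of the elements searched, and they include *Ankrd37* and *Bnip3*, the 2 genes with the largest ratio of replicate 2 to the median of the other embryos. Sequences read 5' to 3' on the strand of the gene, the positions are those of GRCm39, where each sequence matched once, and capitals mark both elements on either strand.
Bnip3 (chr7:138511236-138511485, minus strand): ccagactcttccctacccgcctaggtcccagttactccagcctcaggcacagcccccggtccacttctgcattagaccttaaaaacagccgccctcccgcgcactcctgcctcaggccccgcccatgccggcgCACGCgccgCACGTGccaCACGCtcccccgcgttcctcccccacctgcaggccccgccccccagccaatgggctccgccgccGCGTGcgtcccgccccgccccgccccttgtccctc
Ankrd37 (chr8:46452888-46453137, minus strand): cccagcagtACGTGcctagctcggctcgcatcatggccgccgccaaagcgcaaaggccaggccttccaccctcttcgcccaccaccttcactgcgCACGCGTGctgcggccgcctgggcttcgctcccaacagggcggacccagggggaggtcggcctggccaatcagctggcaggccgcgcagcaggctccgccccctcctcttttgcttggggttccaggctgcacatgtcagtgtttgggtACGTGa
Slc2a1 (chr4:118965692-118965941, plus strand): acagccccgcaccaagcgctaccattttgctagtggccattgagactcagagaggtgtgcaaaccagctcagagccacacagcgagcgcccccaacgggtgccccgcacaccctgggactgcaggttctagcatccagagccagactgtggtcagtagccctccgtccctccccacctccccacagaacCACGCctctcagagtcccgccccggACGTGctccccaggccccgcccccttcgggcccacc
Car9 (chr4:43506776-43507025, plus strand): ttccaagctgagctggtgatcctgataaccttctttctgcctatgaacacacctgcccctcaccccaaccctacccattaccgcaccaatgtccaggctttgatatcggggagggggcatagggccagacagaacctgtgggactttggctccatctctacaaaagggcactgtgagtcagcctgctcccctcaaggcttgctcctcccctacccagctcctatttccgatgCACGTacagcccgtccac
Egln3 (chr12:54250661-54250910, minus strand): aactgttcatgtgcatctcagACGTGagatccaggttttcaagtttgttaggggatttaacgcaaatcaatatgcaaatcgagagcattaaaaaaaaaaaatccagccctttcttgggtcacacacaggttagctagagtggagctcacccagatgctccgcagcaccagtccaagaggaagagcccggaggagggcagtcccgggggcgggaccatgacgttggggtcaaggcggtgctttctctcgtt
In *Bnip3* the letters CACGTG at 108 bases before the start site hold ACGTG on both strands and overlap none of its 3 GCGTG matches. In *Ankrd37* one ACGTG lies 6 bases before the start site and another 241 bases before it, and a CACGCGTG holds GCGTG on both strands. For every gene shown here the RefSeq start site lies inside the gene as the gene annotation of GRCm39 gives it. The 2 annotations thus differ in the starts, most for *Ankrd37* (chr8:46449939-46458744). Distances are counted from the RefSeq start site. In *Slc2a1* ACGTG lies 36 bases before the start site, in *Car9* 18 and in *Egln3* 229. A match of 5 letters is a description of the sequence, and binding of HIF was not measured here.

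The E9.5 libraries held 8401990 to 23339359 counts in genes, and the LSK libraries 12270376 to 59216547. Replicates 2 and 4 of the double point mutant were within the range of the others in depth (14678249 and 16383191 counts, with 18260 and 18422 genes detected against 17517 to 18854 in the other 22). The counts are over whole genes, including exons that the null alleles keep. *Kat6a* was at 153 to 217 CPM in all E9.5 embryos and was not called lower in *Kat6a-/-* embryos, so its count does not check their label. *Kat6b* was higher in *Kat6b-/-* embryos (log2 fold change 0.41, FDR 0.00441), at 52 to 58.3 CPM in these 4. It was at 37.8 to 46.9 CPM in all other embryos except double point mutant replicate 2, which was at 56 CPM, within the range of *Kat6b-/-* embryos, while its 3 group mates were at 40.7 to 42 CPM. The genotype of that library could not be read from the counts, and the part of its *Kat6b* level in its other values was not tested. The study describes the E9.5 embryos as male, and 3 of the 24 libraries (1 *Kat6a-/-* and 2 *Kat6b-/-*) held abundant counts of *Xist*, the transcript of the inactive X chromosome.

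Among the genes of fuel use, *Slc2a1* (chr4:118965908-118996365, as the gene annotation of GRCm39 gives it), which encodes the glucose transporter GLUT1, was measured at 555, 434, 479 and 616 CPM in the 4 WT embryos and at 504, 1328, 568 and 659 CPM in double point mutant replicates 1 to 4. The highest of the other 22 embryos had 616 CPM, so replicate 2 lay 2.02-fold above the next embryo of all, which was replicate 4. *Pdk1* (chr2:71703488-71734202), a kinase that shuts off pyruvate dehydrogenase and keeps pyruvate out of the mitochondria, was at 108, 96.5, 103 and 128 CPM in WT and at 121, 438, 116 and 202 CPM in the double point mutants. *Ak4* (chr4:101276265-101324968), a mitochondrial adenylate kinase, was at 115, 108, 100.3 and 122 CPM in WT and at 119, 223, 121 and 167 CPM in the double point mutants. Its gap between replicate 2 and the next embryo, 1.34-fold, was the smallest of the 10.

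In the genes of oxygen sensing and chromatin, replicates 2 and 4 were again first and second of the 24 embryos. *Egln3* (chr12:54225767-54250673), the HIF prolyl hydroxylase that is itself induced by HIF, was at 13.6, 12.3, 14.46 and 12.6 CPM in WT and at 13.1, 81.4, 11.4 and 21.6 CPM in the double point mutants. No embryo other than these replicates 2 and 4 exceeded 15.9 CPM. *Kdm3a* (chr6:71565956-71610472), a histone H3 lysine 9 demethylase whose activity needs oxygen, was at 124, 129.8, 116 and 122 CPM in WT and at 111, 328, 118 and 159 CPM in the double point mutants, with at most 138 CPM in the other 22 embryos.

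*Bnip3* (chr7:138490690-138511253), a receptor on the outer mitochondrial membrane that directs mitochondria to autophagy, had the largest excess of the 10 in replicate 4. It was at 45.4, 45.1, 35.4 and 53.5 CPM in WT and at 44.5, 318, 47.3 and 124 CPM in the double point mutants. Of 14183 genes, *Bnip3* ranked 24 by excess over the 22 other embryos in replicate 2 and 9 in replicate 4. *Vegfa* (chr17:46327919-46343309), the growth factor that drives vessel formation, was at 80.7, 96.6, 81.4 and 99.0 CPM in WT and at 82.5, 364, 67.5 and 141 CPM in the double point mutants. Replicate 3 had the lowest *Vegfa* of the 24 embryos and replicate 2 the highest.

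The least expressed genes had wide gaps between replicate 2 and the next embryo, 4.93-fold for *Ndrg1*, 4.6-fold for *Ankrd37* and 3.26-fold for *Car9*. *Ankrd37* (chr8:46449939-46458744), which encodes a small ankyrin repeat protein, was at 3.72, 4.46, 5.24 and 5.79 CPM in WT and at 4.72, 38.4, 4.33 and 8.35 CPM in the double point mutants, and its ratio in replicate 2 to the median of the 22 other embryos, 8.53-fold, was the largest of the 10. *Ndrg1* (chr15:66801166-66841835), a stress-responsive gene named for its regulation by N-myc, was at 9.51, 7.89, 8.04 and 9.33 CPM in WT and at 8.87, 65.0, 9.31 and 11.8 CPM in the double point mutants. It was the only one of the 10 for which replicate 4 was not above the 22 other embryos, as a *Kat6bE/E* embryo reached 13.2 CPM. *Car9* (chr4:43506966-43513729), the membrane carbonic anhydrase that exports acid, was measured on few counts, with 9 to 16 counts in the WT embryos and 15, 65, 12 and 22 counts in the double point mutants, or 0.864, 4.47, 0.787 and 1.37 CPM. The highest of the 22 other embryos, a *Kat6aE/E* embryo, was also at 1.37 CPM, so replicate 4 exceeded it only in digits not shown. The exact 95% binomial interval of replicate 2, 3.45 to 5.70 CPM, lay above that of every WT embryo, whereas the interval of replicate 4, 0.859 to 2.08 CPM, overlapped them all. These intervals cover counting error only.

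**Figure D1:**
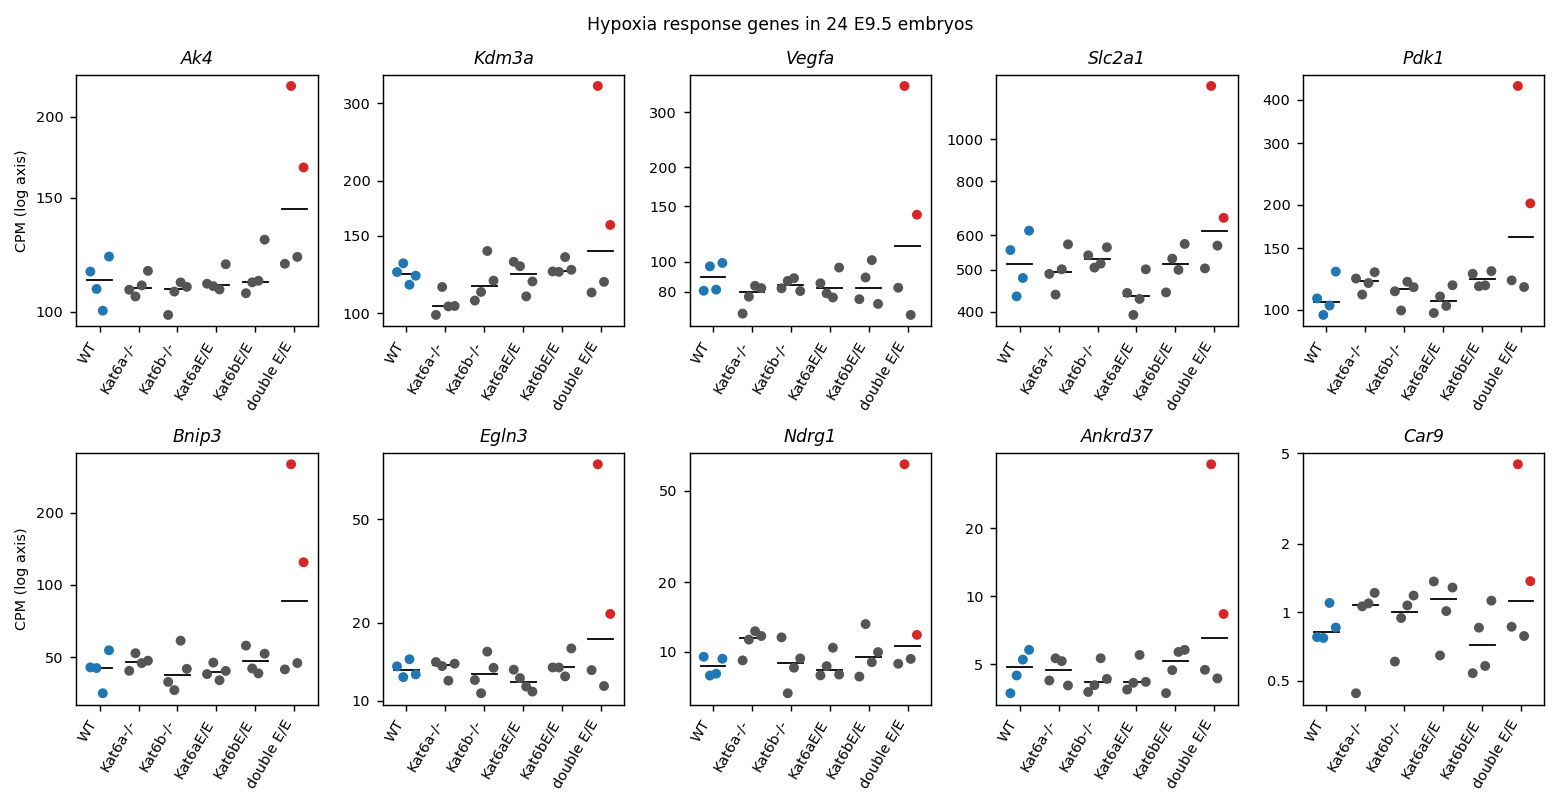
CPM (TMM-scaled, log axis) of each hypoxia response gene in 24 E9.5 embryos, with 1 point per embryo in replicate order, lines at the genotype medians, WT in blue and double point mutant (double E/E) replicates 2 and 4 in red. Replicate 2 is the highest point in all 10 panels, at 318 CPM for *Bnip3* where the WT embryos lie between 35.4 and 53.5, and replicates 1 and 3 lie among the other embryos.

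How often genes of all kinds behave this way was read from the whole table. Replicate 2 was above all 4 WT embryos for 32.7% of the 14183 genes tested and above all 22 other embryos for 18.5%, against 10 of 10 hypoxia response genes by either count. Replicate 4 was above all 4 WT embryos for 26.0% of genes and above the 22 other embryos for 5.87%, against 10 of 10 and 9 of 10. Among the 16 mutant embryos other than the double point mutants, the number of hypoxia response genes above all WT embryos was between 0 and 6, with 6 in *Kat6bE/E* replicate 4 alone, and it was 0 in double point mutant replicates 1 and 3. The share of all genes above all WT embryos was 20.2% to 28.4% in these 16 embryos, with 24.5% in *Kat6bE/E* replicate 4. It was 23.0% and 26.0% in double point mutant replicates 1 and 3.

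The other genes of the pathway were read from 3 lists. Of 20 genes of glycolysis and lactate export, 19 were higher in replicate 2 than in all 22 other embryos, and the median excess was 1.12 on the log2 scale. The exception was *Pfkfb4*. Examples, picked after their values were seen, were *Pfkp*, a phosphofructokinase (117 CPM against 14.4 to 26.0), *Pfkfb3*, which makes the activator of phosphofructokinase (261 CPM against 42.5 to 60.2), and *Slc16a3*, the lactate exporter MCT4 (662 CPM against 162 to 258). *Ldha*, lactate dehydrogenase A, also picked after its values were seen, was at 3408 CPM against 1607 to 2123. In replicate 4, 12 of the 20 were above the 22 other embryos, with a median excess of 0.271.

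Of 32 other hypoxia-inducible genes, 31 were higher in replicate 2 than in all 22 other embryos, with a median excess of 1.44, and *Car12* was the exception. *Bhlhe40*, a transcriptional repressor, was at 86.8 CPM in replicate 2, 16.2 CPM in replicate 4 and 3.36 to 6.08 CPM in the other 22. *Ddit4*, an inhibitor of mTORC1 signalling, was at 687, 124 and 30.8 to 59.4 CPM in the same order. *Adm*, the vasodilator peptide adrenomedullin, picked after its values were seen like *Epo*, was at 27.0, 3.92 and 1.22 to 3.15 CPM. *Epo*, erythropoietin, was at 9.35 CPM in replicate 2 and 1.71 to 3.63 CPM in the other 22, and at 3.43 CPM in replicate 4 it was within that range. In replicate 4, 20 of the 32 were above the 22 others, with a median excess of 0.359.

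The sensors and subunits went both ways. Of 14 HIF subunits, oxygen sensors and regulators, 5 were above and 6 below all 22 other embryos in replicate 2, and the median excess was -0.066. Of the 14183 genes, 2617 were above and 2652 below all 22 others in this embryo. *Hif1a*, whose protein is controlled mainly through stability, was at 144 CPM in replicate 2 against 207 to 269 CPM in the others, the lowest of the 24 embryos. *Egln1*, the main HIF prolyl hydroxylase and itself a HIF target, was at 303 CPM against 103 to 124 CPM, and was also raised in replicate 4, at 159.6 CPM. *Epas1*, which encodes HIF-2 alpha, was at 29.1 CPM against 15.8 to 29.0 CPM, *Arnt* at 83.8 CPM against 61.7 to 76.9 CPM, and *Vhl* at 53.2 CPM against 37.7 to 49.1 CPM. In replicate 4 *Egln1* was the only one of the 14 above the 22 others, and none was below them.

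Markers of cell types were read in the same embryos. In replicate 2, 0 of 10 erythroid and 0 of 8 visceral endoderm and hepatocyte markers were above the 22 other embryos, and 3 of 7 endothelial markers were, with a median excess of 0.277. The median of 3 macrophage and granulocyte markers was -0.538, with none below all 22 others. In replicate 4 all 10 erythroid markers were under the median of the 22 other embryos (median difference -0.411, from -0.872 to -0.106), a larger size than that of its glycolysis (0.271) and other inducible genes (0.359), though none lay below all 22. Of its 8 visceral endoderm and hepatocyte markers 1 lay below all 22, and the lowest difference was -1.73. Of the 14183 genes, 703 lay below all 22 in replicate 4. The summed level of the erythroid markers in replicates 2 and 4 was between 4172 and 6476 CPM, within the 2903 to 12900 CPM of the others, and that of the endothelial markers was between 286.9 and 374.3 CPM against 211.5 to 348.5 CPM. In whole embryos, fewer cells of a type and less RNA per cell cannot be told apart. The part of cell composition in these values was not tested.

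**Figure D2:**
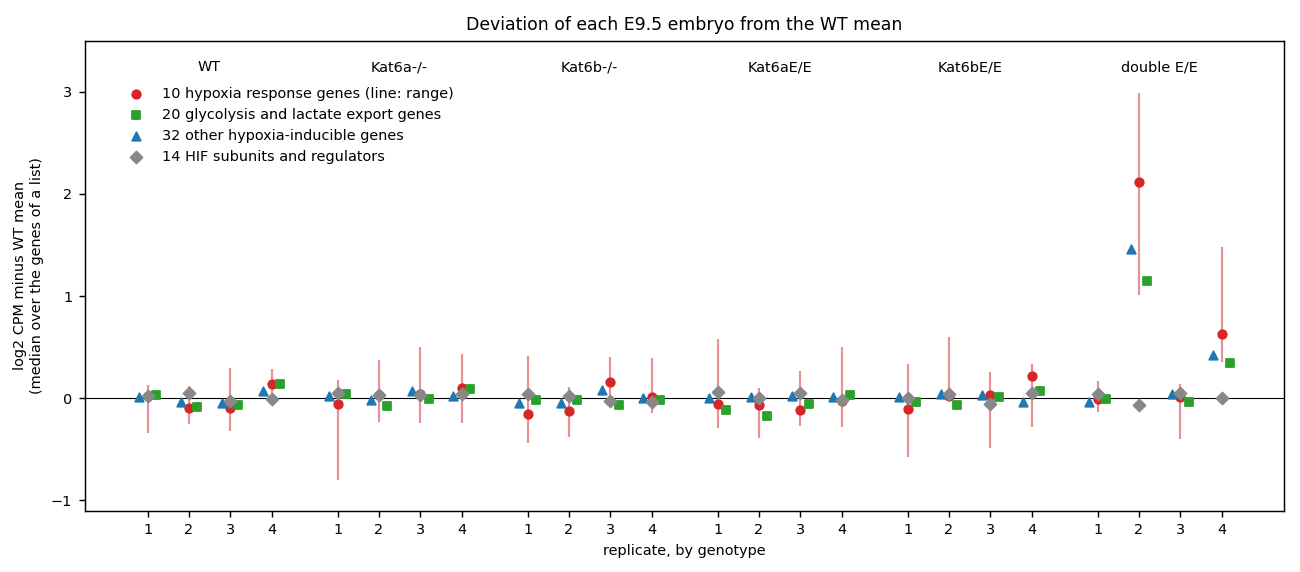
Median log2 CPM minus the WT mean for the 10 hypoxia response genes (red, with the range of the 10 as a line) and 3 other gene lists in each E9.5 embryo, by genotype and replicate. Replicate 2 of the double point mutant (double E/E) reaches 2.12 for the 10 genes, 1.15 for glycolysis and 1.46 for the other inducible genes, replicate 4 reaches 0.626, 0.345 and 0.422, and the 14 HIF subunits and regulators stay between -0.0711 and 0.0583 in all 24 embryos.

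The comparison of genotypes asked whether double point mutant embryos as a group differed from WT. In the fit that followed the study's model (limma on all 24 embryos, with 4 surrogate variables, which are estimates of unwanted variation made from the counts, and litter as a random block), 5 of the 10 genes were called at a false discovery rate (FDR, the Benjamini-Hochberg adjusted p) under 0.05, all higher. They were *Ak4* (log2 fold change 0.35 ± 0.06 SE, FDR 0.00557), *Kdm3a* (0.30 ± 0.06, FDR 0.0128), *Vegfa* (0.37 ± 0.08, FDR 0.016), *Pdk1* (0.58 ± 0.12, FDR 0.0217) and *Egln3* (0.50 ± 0.12, FDR 0.0279). Of all genes, 2.91% were called and 1.34% were called higher. *Bnip3* (0.88 ± 0.23, FDR 0.0547) and *Ankrd37* (0.61 ± 0.18, FDR 0.0545) were just outside, and *Slc2a1*, *Ndrg1* and *Car9* had an FDR between 0.161 and 0.569. All 10 estimates were above 0, with a median of 0.431 where the median over all genes was -0.000718. The CPM of the groups overlapped for all 10 genes, since replicates 1 and 3 lay among the WT embryos, and did not overlap for 7.31% of all genes.

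These calls were lost without the raised embryos and without the surrogate variables. Without replicate 2, 0 of 10 genes were called and the median fold change was 0.179. Without replicates 2 and 4, a choice made after the data had been seen, 0 were called, the median was -0.00992, and 5 of the 10 estimates were below 0, among them *Egln3* (-0.12), *Vegfa* (-0.15) and *Kdm3a* (-0.03). Without replicate 4 the number was 3, and without replicate 1, an embryo at the WT level, it was 8. Leaving out WT replicate 2 gave 3, and leaving out WT replicate 3 gave 1. Leaving out 1 library also moved the number of all genes called in part of the fits. These counts alone thus do not single out the 10 genes. Without surrogate variables 0 of 10 were called, and 0 of all genes, although the fold changes were larger. *Bnip3*, for example, had 1.22 with an FDR of 0.277. The share of each embryo in the double point mutant estimate was computed by unweighted least squares on the same genotypes and surrogate variables. Replicates 1, 3 and 4 had shares of 40.2%, 46.3% and 27.8% there, and replicate 2 had -14.3%. The fit itself also used the litter block and weights that differ by gene, so its shares are not these exactly.

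**Figure D3:**
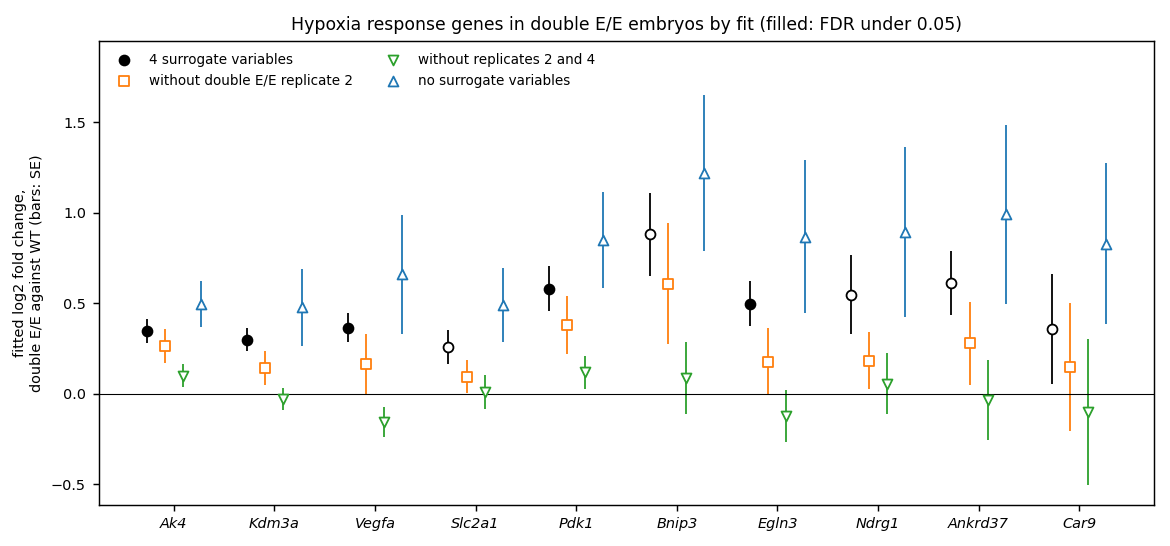
Fitted log2 fold change of double point mutant (double E/E) against WT embryos, with SE, for each hypoxia response gene under 4 fits, with filled symbols for FDR under 0.05. Of these 4 fits only the one with 4 surrogate variables and all embryos has filled symbols, 5 of 10, and without replicates 2 and 4 the estimate is -0.15 for *Vegfa* and 0.12 for *Pdk1*.

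Of the other lists the same fit called 12 of the 32 other hypoxia-inducible genes, 4 of the 20 glycolysis genes and 1 of the 14 HIF subunits and regulators, all higher in double point mutants. The glycolysis genes were *Pfkl* (0.31, FDR 0.0211), *Pfkfb3* (0.46, FDR 0.0204), *Aldoc* (0.66, FDR 0.0233) and *Tpi1* (0.32, FDR 0.0445). *Bnip3l*, a relative of *Bnip3* (0.45), the collagen hydroxylases *P4ha1* (0.50), *P4ha2* (0.43) and *Plod2* (0.29), the disulfide oxidase *Ero1a* (0.53), *Bhlhe40* (0.94) and *Bhlhe41* (0.78) were among the 12, with *Higd1a* (0.41), *Gys1* (0.34) and *Jmjd6* (0.26). Of these 12, *Ddit4* (1.06, FDR 0.0344) and *Ppp1r3c*, a glycogen-targeting phosphatase subunit (1.00, FDR 0.00498), had the largest estimates. *Egln1* was the regulator called (0.37, FDR 0.0123). Without replicate 2 the numbers were 1, 0 and 0, and without surrogate variables, or without replicates 2 and 4, they were 0, 0 and 0. Without surrogate variables 0 of all genes were called.

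In no other mutant was a hypoxia response gene called at E9.5. In *Kat6a-/-* embryos 2.64% of all genes were called and 0 of the 10, with 3 of the 10 and 2399 of the 14183 genes at an unadjusted p under 0.05. The largest estimate was that of *Ndrg1* (0.63, FDR 0.117), which was at 9.18, 11.3, 12.3 and 11.7 CPM in *Kat6a-/-* embryos, where 1 of the 4 lay within the WT range. It was called with 6 surrogate variables (FDR 0.0254). *Kdm3a* was the only one of the 10 for which *Kat6a-/-* and WT embryos did not overlap, at 99.1, 115, 104 and 104 CPM, all below the lowest WT value of 116. This held for 11.9% of all genes, and the fitted change was -0.03 (FDR 0.85), or -0.21 (FDR 0.0344) in a fit of only these 8 libraries. The median of the 10 estimates, 0.296, became 0.0389 when replicate 2 of the double point mutant, which is not part of the comparison, was left out of the fit. Of the other lists, *Cited2*, an inhibitor of HIF (0.18, FDR 0.0488), and *Cox4i2*, a hypoxia-inducible cytochrome oxidase subunit (0.76, FDR 0.0349), were called higher and *Car12* lower (-0.53, FDR 0.0411).

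In *Kat6b-/-* embryos 0 of 10 genes were called and 0.508% of all genes, and the median estimate was -0.0102. None of the 10 had an unadjusted p under 0.05, against 1713 of all genes, and none was free of overlap with WT (6.6% of all genes). In *Kat6aE/E* embryos 0 of 10 were called and 0.275% of all genes, with a median of 0.0441. There 0 of 10 and 1421 of all genes had an unadjusted p under 0.05, and 0 of 10 were without overlap (4.93% of all genes). In *Kat6bE/E* embryos 0 of 10 and 0% of all genes were called, with a median of 0.16 and with 626 of all genes at an unadjusted p under 0.05. *Kdm3a* (0.14) and *Pdk1* (0.26) had an unadjusted p under 0.05 there, and 0 of 10 were free of overlap (2.31% of all genes). DESeq2 and edgeR, fitted with the same surrogate variables, also called 0 of 10 in each of these 4 comparisons. The 5 comparisons share the same 4 WT embryos.

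Littermates allowed 3 closer comparisons. *Kat6b-/-* replicate 2, *Kat6a-/-* replicate 2 and *Kat6aE/E* replicate 1 each had a WT embryo of the same litter, and the median difference over the 10 genes was -0.0509, 0.0201 and 0.0149 on the log2 scale, with 4, 6 and 7 of the 10 higher in the mutant. With 1 pair per litter these differences have no replicate check.

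Point mutants were also compared directly with null mutants. Between *Kat6aE/E* and *Kat6a-/-* embryos 0 of 10 genes were called, against 1.6% of all genes, and 4 of 10, *Slc2a1*, *Egln3*, *Ndrg1* and *Ankrd37*, had an unadjusted p under 0.05, all lower in *Kat6aE/E* (median -0.243). Of the 14183 genes, 2214 had an unadjusted p under 0.05 in that comparison. Between *Kat6bE/E* and *Kat6b-/-* embryos 0 of 10 were called, against 0.0353%, with *Ak4* alone of the 10, and 1253 of all genes, at an unadjusted p under 0.05. Between double point mutant and *Kat6a-/-* embryos 0 of 10 were called, against 0.00705%, and DESeq2 called 1 of the 10. Of the 10, *Ak4*, *Kdm3a* and *Vegfa* had an unadjusted p under 0.05 there, as did 1479 of all genes. A moderated F-test over all 5 mutants against WT called 4 of 10 (*Ak4*, FDR 0.00737, *Kdm3a*, FDR 0.0255, *Egln3*, FDR 0.039, and *Vegfa*, FDR 0.0421) and 3.25% of all genes. It called 0 of 10 without double point mutant replicate 2, and 1 without replicate 4 or without *Kat6a-/-* replicate 1. It called 2 without any one of WT replicates 1, 3 and 4, *Kat6a-/-* replicates 3 and 4 or *Kat6b-/-* replicates 1 and 4. The shares of all genes called in these refits are not given, so the counts alone do not single out the 10 genes.

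The level of the 10 genes in WT tissue was compared per length, as RPKM (CPM divided by gene length in kilobases). In WT embryos *Slc2a1* was the highest at 202 ± 31.3 RPKM (SD, n = 4). *Bnip3* (25.5 ± 4.21), *Kdm3a* (24.2 ± 1.13), *Ak4* (21.6 ± 1.78), *Vegfa* (21.4 ± 2.33) and *Pdk1* (19.7 ± 2.51) followed, each within the spread of its neighbour in this order, while *Kdm3a* and *Pdk1* were further apart than their SDs. *Ankrd37* (6.21 ± 1.17) and *Egln3* (4.96 ± 0.358) were lower and close to each other, then *Ndrg1* (3.01 ± 0.293), and *Car9* (0.448 ± 0.0784) was the lowest.

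WT LSK cells had another order. *Slc2a1* (38.0 ± 2.45 RPKM, n = 4) was still the highest, followed by *Pdk1* (29.6 ± 1.62) and *Egln3* (20.8 ± 5.34), which stood at the eighth place in embryos, and *Ak4* (2.6 ± 0.343) and *Ndrg1* (2.15 ± 0.427) were the lowest, within each other's spread. In a fit of the 8 WT libraries, 9 of 10 genes were called between the tissues, and so were 77.9% of all genes. *Car9* (3.49), *Egln3* (1.82) and *Pdk1* (0.60) were higher in LSK cells, and *Ak4* (-3.06), *Slc2a1* (-2.38), *Bnip3* (-1.33), *Vegfa* (-1.21), *Kdm3a* (-0.85) and *Ndrg1* (-0.73) were lower, with an FDR of 0.006 or less for each. *Ankrd37* was not called (0.10, FDR 0.71). Tissue, stage and sorting differ together here and cannot be told apart.

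In LSK cells the mutants were compared with WT in the same way. The summed level of 8 LSK markers was 1642 to 2218 CPM in 9 libraries and 995.1 to 1312 CPM in the other 7, which were double point mutant replicates 2 to 4, *Kat6bE/E* replicates 2 and 3, *Kat6aE/E* replicate 2 and WT replicate 4. In the double point mutant replicates 2 to 4, which were littermates, the summed level of 10 erythroid markers was 5009 to 8449 CPM, against 346.8 to 3784 CPM in the other 13 libraries, and 12600 to 13555 genes were detected, against 13683 to 17647.

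No hypoxia response gene was called in any LSK comparison with limma, edgeR or DESeq2 over all libraries. In *Kat6aE/E* cells 1.36% of all genes were called and 0 of 10. *Ak4* (-0.43, FDR 0.199), *Vegfa* (-0.39, FDR 0.193) and *Slc2a1* (-0.22, FDR 0.219) were lower and *Ndrg1* was higher (0.52, FDR 0.158) at an unadjusted p under 0.05. Of the 13071 genes, 1639 had an unadjusted p under 0.05. *Ndrg1* was at 9.44, 7.10, 7.66 and 8.35 CPM in *Kat6aE/E* and 6.91, 7.26, 6.23 and 4.48 CPM in WT cells, so that the groups overlapped in 1 library each. All 10 genes overlapped between these groups, against 4.1% of all genes that did not. Without double point mutant replicate 2, *Ak4* was called (-0.51, FDR 0.042).

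In *Kat6bE/E* cells 0 of 10 and 0% of all genes were called, with 364 of all genes at an unadjusted p under 0.05, and with *Ak4* (0.38) and *Pdk1* (0.14) at an unadjusted p under 0.05. *Pdk1* was at 191, 203, 195 and 181 CPM, above the 156, 160.3, 161 and 177 CPM of WT, and 3.92% of all genes did not overlap between these groups. In *Kat6aE/E;Kat6bE/E* cells 0 of 10 and 0% of all genes were called, with 896 of all genes and none of the 10 at an unadjusted p under 0.05. DESeq2 called 80 genes there and 0 of the 10. *Kdm3a*, at 65.5, 63.0, 51.2 and 62.6 CPM, lay below the 66.2 to 73.8 CPM of WT, and 4.53% of all genes did not overlap between these groups.

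The raised genes of the E9.5 embryo were not raised together in any LSK library. The median excess of the 10 genes over the WT mean was between -0.163 and 0.163 in the 16 libraries, and at most 5 of the 10 were above all WT libraries. *Slc2a1* was measured at 82.3, 206, 162 and 154 CPM in the double point mutants against 92.7 to 107 CPM in WT. It was high in replicates 2 to 4, the libraries with the high erythroid sums, and below every WT library in replicate 1. The part of erythroid RNA in this value was not tested. The fitted change of *Slc2a1* was -0.09 (FDR 0.91), and without replicate 1 it was 0.53 (FDR 0.00295). In that fit *Pdk1* was also called (0.21, FDR 0.0439), among 2170 genes. *Ndrg1* was at 1.32 CPM in double point mutant replicate 2, against 4.48 to 7.26 CPM in WT. *Egln3* was at 28.0 to 37.7 CPM in the 7 libraries of low LSK marker sums, whatever their genotype, and at 52.2 to 71.2 CPM in the other 9.

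**Figure D4:**
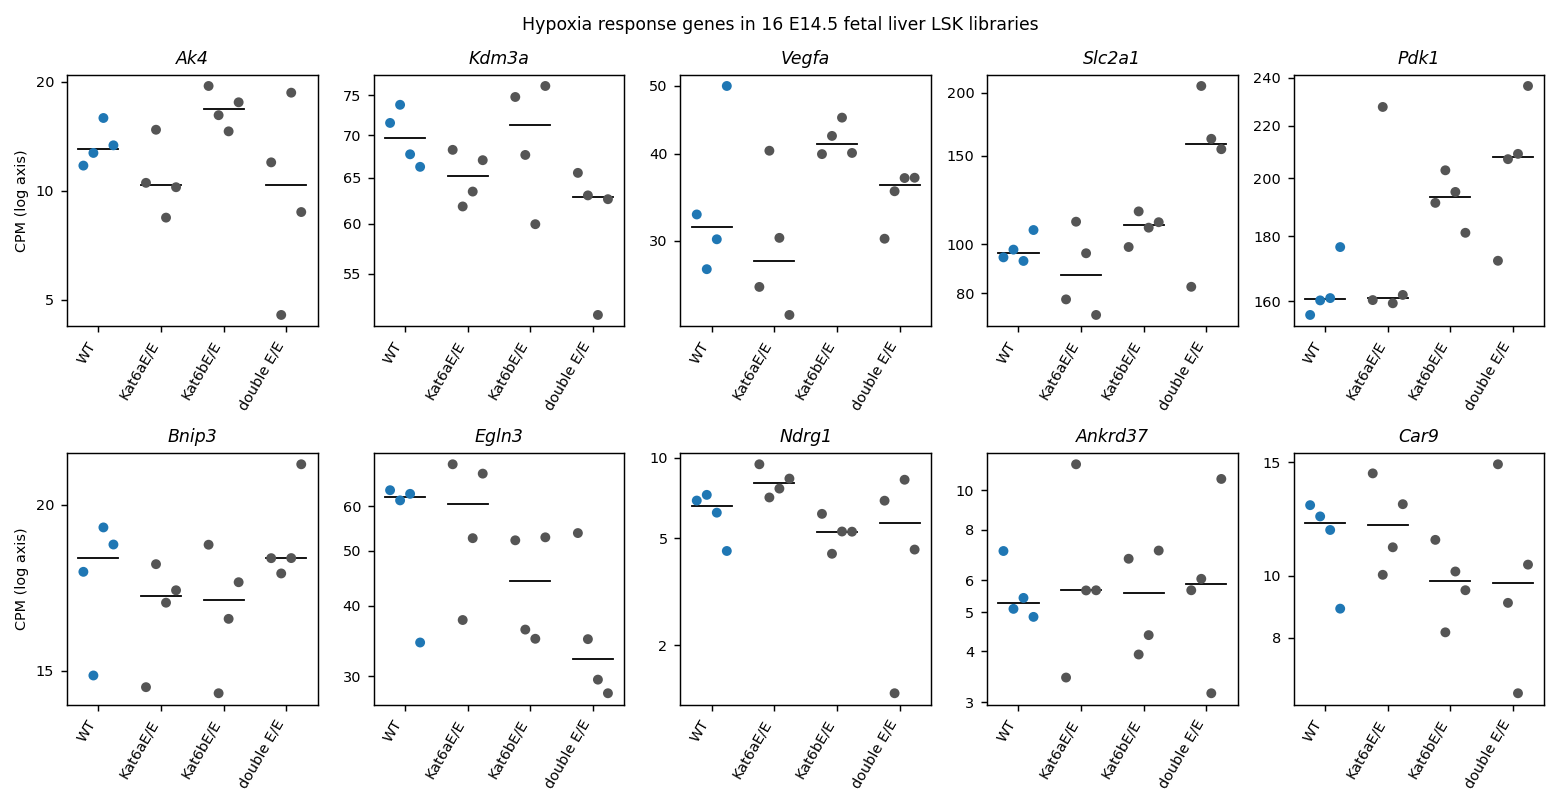
CPM (TMM-scaled, log axis) of each hypoxia response gene in 16 E14.5 LSK libraries, with 1 point per fetus in replicate order, lines at the genotype medians and WT in blue. No library is high in all panels, *Slc2a1* is at 154 to 206 CPM in 3 double point mutant (double E/E) libraries, and *Egln3* splits every genotype into libraries near 28.0 to 37.7 CPM and 52.2 to 71.2 CPM.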

How the data were processed

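RNA sequencing of 24 whole E9.5 embryos (4 of each of 6 genotypes) and of LSK cells from 16 E14.5 fetal livers (4 of each of 4 genotypes) was analysed. Groups, replicate numbers and litters were taken from the sample labels. The authors deposited whole-number read counts per RefSeq gene for each sample, made with Rsubread (align and featureCounts) on mm39, and these deposited counts are not normalized. The library preparation did not keep strand, so reads of overlapping genes cannot be told apart by strand. Totals are the counts assigned to genes.

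The 26411 genes were named from the files and typed from a RefSeq gene table, which matched 26359 of them. Following the study's model, protein-coding genes not on the Y chromosome were kept after edgeR's filter on low counts, leaving 14183 genes at E9.5, 13071 in LSK cells and 14462 in the fit of WT tissues. CPM were scaled by TMM, with a prior count of 2 on the log2 scale for differences between single embryos. Weighted surrogate variables (4 per stage, none between WT tissues) entered limma's voomLmFit with litter as a random block (within-litter correlation 0.107 at E9.5, 0.331 in LSK cells, 0.424 between WT tissues), with robust moderation and Benjamini-Hochberg adjustment over all genes tested. The software was limma 3.58.1, DESeq2 1.42.0 and edgeR 4.0.16 in R 4.3.3. The E9.5 fit of double point mutant against WT was tested on simulated data, and the other fits were not. In the simulation all 4 double point mutants carried the same changes, without a litter effect or a single raised embryo. It therefore does not bear on calls that rest on replicate 2. Intervals of counts are exact binomial intervals, at 95%.

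The alternatives were 0, 2 or 6 surrogate variables, edgeR and DESeq2, other size factors, genes of all types, a fit with low-count genes kept, no litter block, a replicate block, a fit of only the groups compared and each library left out. The alternatives chosen after seeing the data were sample weights and fits without double point mutant replicates 2 and 4, without the 3 libraries with *Xist*, without replicate 2 and surrogate variables, and without the 7 LSK libraries of lowest LSK marker sums.

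The 10 genes, the other lists and the tests were chosen with earlier results of these data known. The genes named are the 10, with *Hif1a*, *Epas1*, *Arnt*, *Egln1* and *Vhl*, and genes of the 3 pathway lists with an FDR under 0.05 against WT. Marker lists are given as counts and summed levels. Other names were chosen after their values were seen and are marked so. Promoter sequences are from RefSeq (GRCm38.p6), placed on GRCm39 by exact match. Gene positions are from GENCODE on GRCm39.

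Same-numbered replicates did not deviate together (median correlation 0.0478 over 60 pairs at E9.5 and 0.00383 over 24 in LSK cells), so they were not treated as pairs.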

Additional observations from a re-analysis of the deposited data

Results flagged for a closer look

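A gap test was applied to each gene in each group of 4 samples, asking whether the most extreme sample lay further from its nearest neighbour than Dixon's 95% critical value for 4 samples allows. Of 100 combinations of gene and group, 8 passed. Chance alone gives about 1 in 20 for independent, normally distributed values. The genes were read in the same libraries and are not independent, so the 8 cannot be set against that rate. In the double point mutant E9.5 embryos 4 genes passed, all through replicate 2. They were *Egln3* (81.4 CPM, nearest 21.6), *Ndrg1* (65.0 CPM, nearest 11.8), *Ankrd37* (38.4 CPM, nearest 8.35) and *Car9* (4.47 CPM, nearest 1.37). The other 6 genes were also highest in this embryo, without passing the gap test.

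The remaining 4 were single genes. *Kdm3a* was at 134 CPM in *Kat6bE/E* embryo replicate 3, with the nearest at 126. In LSK cells *Pdk1* was at 228 CPM in *Kat6aE/E* replicate 2 (nearest 162), *Bnip3* at 21.5 CPM in double point mutant replicate 4 (nearest 18.2), and *Egln3* at 34.4 CPM in WT replicate 4, below its nearest at 61.5. The libraries of *Pdk1*, *Bnip3* and *Egln3* are among the 7 with the lowest LSK marker sums. The part of the LSK marker level in these values was not tested. Of 30 pairs of mutant effects compared between E9.5 embryos and LSK cells, 0 had every sample moving in opposite directions. At E9.5 0 of 10 genes were free of overlap with WT in *Kat6aE/E*, *Kat6bE/E* or double point mutant embryos. The count of 0 is therefore no measure of likeness between the tissues.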

How the results depend on the processing

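Numbers of the 10 genes called in double point mutants against WT (5) became 0 with 0 surrogate variables, with edgeR without them, with only the groups compared, with replicates 2 and 4 left out and with 0 surrogate variables and replicate 2 left out, and 1 with sample weights. Leaving out 1 library gave 0 to 8. The F-test (4) gave 0 under the same settings other than the groups compared, 2 with 2 surrogate variables, 2 without the 3 *Xist* libraries and 8 with DESeq2, and 0 to 6 leaving out 1 library. Against *Kat6a-/-* the double point mutants (0) gave 1 with 6 surrogate variables, DESeq2 or no filter and 0 to 2 leaving out 1 library, and *Kat6a-/-* against WT (0) gave 1 with 6 surrogate variables or only the groups compared. LSK cells gave 0 to 1 (*Kat6aE/E*) and 0 to 2 (double) leaving out 1 library. The numbers of all genes called moved as well, as given below.

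The median log2 fold change of the 10 genes moved as follows. In *Kat6a-/-* against WT (0.296) it was -0.00277 with 0 surrogate variables, -0.00203 with edgeR without them, 0.000986 with only the groups compared, 0.00626 without both raised embryos, -0.0104 with 0 surrogate variables and replicate 2 left out, and 0.0389 to 0.321 leaving out 1 library. In *Kat6aE/E* against WT (0.0441) the same settings gave -0.0646, -0.0394, -0.0424, -0.0497, -0.0542 and -0.0463 to 0.0797, and 2 surrogate variables -0.0777. In *Kat6aE/E* against *Kat6a-/-* (-0.243) they gave -0.123, -0.113, -0.139, -0.159, -0.143 and -0.281 to -0.17, and 2 surrogate variables -0.374. In *Kat6bE/E* against *Kat6b-/-* (0.171) 2 surrogate variables gave 0.0013, and in double against *Kat6a-/-* (0.253) edgeR without surrogate variables gave 0.984. In LSK double against WT (0.04) it was -0.0442 with 0 and -0.0426 with 6 surrogate variables, -0.085 with edgeR without them, 0.118 with sample weights, -0.0323 with only the groups compared, -0.0344 without the 7 libraries of low LSK markers, and -0.0679 to 0.077 leaving out 1 library (*Kat6bE/E* -0.0605 to 0.0871).

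Of the 5 genes called in double against WT, signs turned for *Egln3* (-0.12), *Vegfa* (-0.15) and *Kdm3a* (-0.029) without both raised embryos, as did those of *Ankrd37* (-0.03) and *Car9* (-0.10), which were not called, and for *Slc2a1* in LSK double against WT without double replicate 1 (0.53, FDR 0.00295, the range leaving out 1 library being -0.136 to 0.534). The cause was not tested. The replicate block gave 6 of 10 called in double against WT (median 0.453), and 3 in the F-test. Genes called of all genes in double against WT (413) ranged from 0 with 0 surrogate variables to 811 with 6, and in LSK double against WT (0) reached 2170 without double replicate 1. Over the alternatives other than leaving out 1 library, the genes called ranged from 48 to 631 in *Kat6a-/-* (375), 0 to 169 in *Kat6b-/-* (72), 0 to 122 in *Kat6aE/E* (39), 3 to 491 in *Kat6aE/E* against *Kat6a-/-* (227), 0 to 45 in *Kat6bE/E* against *Kat6b-/-* (5), 0 to 48 in double against *Kat6a-/-* (1), 10 to 960 in the F-test (461), and 0 to 267, 0 to 338 and 0 to 80 in LSK *Kat6aE/E* (178), *Kat6bE/E* (0) and double (0). With 4 embryos a group, from 3 litters without a WT littermate, litter and genotype cannot be told apart. *Car9* is limited by counts.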

Other observations

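Genes outside the lists also stood high in double point mutant E9.5 embryo replicate 2, and they are named here after their values were seen. Of 14183 genes, 305 were more than 1 log2 unit above the median of the 22 other embryos and 125 more than 1 below it. *Chac1*, a glutathione-degrading enzyme, ranked first, at 55.0 CPM against 0.238 to 1.12 CPM in the 22 others, and it was at 0.561 CPM in replicate 4, within their range. *Ndufa4l2*, a mitochondrial protein known as a HIF target, was at 35.5 CPM against 0.857 to 2.59 CPM, and at 3.43 CPM in replicate 4. *Ier3*, an immediate-early gene, was at 28.3 CPM against 0.835 to 2.41 CPM, and at 5.23 CPM in replicate 4, and *Stc1*, stanniocalcin 1, at 59.8 CPM against 2.99 to 5.86 CPM.

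Another 4 genes, picked after their values were seen from no fixed list, were above the 22 others in replicate 2 and within their range in replicate 4. *Trib3* was at 44.5 CPM in replicate 2, 7.10 in replicate 4 and 3.38 to 11.2 CPM in the 22 others. *Ddit3* was at 24.3, 6.98 and 4.71 to 9.16 CPM, *Sesn2* at 142, 24.4 and 20.9 to 26.7 CPM, and *Asns*, asparagine synthetase, at 195, 78.9 and 70.9 to 89.1 CPM in the same order. *Atf4*, a transcription factor of the response to amino acid shortage, also picked after its values were seen, was at 313 CPM in replicate 2, against 192 to 237 CPM.

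The immediate-early genes *Fos* and *Egr1*, unlike *Ier3*, were within the range of the others in both embryos. *Fos* was at 2.48 and 2.43 CPM in replicates 2 and 4 and at 1.06 to 15.1 CPM in the others, and *Egr1* at 7.43 and 6.85 CPM against 3.18 to 19.9 CPM. *Mki67*, a marker of cycling cells, was at 441 and 422 CPM, within the 337 to 634 CPM of the others. The genes of this paragraph were also named after their values were seen. Each of these values is of 1 embryo and was not tested.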
